A study of Mus musculus with 16 samples.

Results

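The genes described here are 9 cytochrome P450 genes known from airway epithelium, namely Cyp2a4, Cyp2a5, Cyp2b9, Cyp2b10, Cyp2f2, Cyp4b1, Cyp2s1, Cyp1a1 and Cyp1b1. They were found as the array probes, other than controls, whose gene name or older synonym is 1 of these 9 names. That gave 14 probes of 41174, and 9 genes of 27729 named on the array. Gene expression had been measured in whole lungs of 16 newborn mice of the inbred strain BALB/c, 1 array per mouse. The groups were pups that breathed ozone at 1000 ppb for 3 h at an age of 3 days and filtered air littermates, with lungs taken 6 h or 24 h after exposure (4 mice in each of the 4 groups). The labels name no genetic alteration, all pups were kept with a dam while they were exposed, and each time point was run apart with its own air controls. The labels give no sex, and whole lung mixes airway cells with all other cells of the organ.

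Cytochromes P450 are haem enzymes of the endoplasmic reticulum that oxidise lipids, steroids and foreign chemicals, using electrons passed on by the reductase Por. In mouse lung the best known site of these enzymes is the club cell, a secretory cell of the conducting airways. It carries Cyp2f2, which activates naphthalene, and the enzymes of the Cyp2a, Cyp2b and Cyp4b groups. Cyp1a1 and Cyp1b1 are textbook targets of the aryl hydrocarbon receptor Ahr and oxidise polycyclic aromatic compounds.

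The Cyp2a and Cyp2b genes lie in a cluster of near copies, so the sequence of a probe bears on which gene its values belong to. The Cyp2a4 probe A_51_P377154 and the Cyp2a5 probe A_52_P246252 share 38 overlapping bases with 3 mismatches, and the first 30 of these bases are shown with the mismatches in capitals.
Cyp2a4 probe A_51_P377154: aggacacTTCgtagacttgcagaggatatt
Cyp2a5 probe A_52_P246252: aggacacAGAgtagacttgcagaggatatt
The annotation in the files lists both Cyp2a4 and Cyp2a5 for all 3 Cyp2a4 probes, and Cyp2a5 alone for its own probe. Probes of the Cyp2b group are shown because they differ in how many genes they can report, and the next paragraphs set their values side by side.
Cyp2b13 probe A_51_P492339: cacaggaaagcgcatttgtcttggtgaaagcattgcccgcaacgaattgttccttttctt
Cyp2b10 probe A_52_P472486: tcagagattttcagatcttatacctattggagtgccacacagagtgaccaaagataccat
Cyp2b9 probe A_52_P256914: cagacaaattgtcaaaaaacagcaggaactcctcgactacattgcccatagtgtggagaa
Cyp2b9 probe A_51_P467076: taaggtctgatttctatgtctacagacttg
The last line holds the first 30 bases of that probe. The Cyp2b13 probe is listed for 4 genes (Cyp2b13, Cyp2b9, Cyp2b10 and Cyp2b23), the brighter Cyp2b9 probe A_51_P467076 for Cyp2b9 and Cyp2b10, and the others for 1 gene each. On mouse build mm9, the build of the array design, the Cyp2a5 probe lies at chr7:27628169-27628228 and the Cyp2a4 probe A_52_P246255 at chr7:27099932-27099991, both on the plus strand. The Cyp2b9 probe A_51_P467076 lies at chr7:26995607-26995666, the Cyp2b10 probe at chr7:26702056-26702115 and the Cyp2f2 probe at chr7:27918570-27918629. The place of these probes within exons was not analysed here.

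The similarity of Cyp2a4 and Cyp2a5 extended to their promoters. Of 249 aligned bases upstream of their start sites in RefSeq (GRCm38.p6), 245 were identical (98.4%). The stretches just upstream are shown with the mismatches in capitals, on the plus strand at chr7:26307072-26307191 for Cyp2a4 and chr7:26835218-26835337 for Cyp2a5.
Cyp2a4 promoter: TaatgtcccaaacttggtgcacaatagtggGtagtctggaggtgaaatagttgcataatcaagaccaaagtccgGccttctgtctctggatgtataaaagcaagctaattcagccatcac
Cyp2a5 promoter: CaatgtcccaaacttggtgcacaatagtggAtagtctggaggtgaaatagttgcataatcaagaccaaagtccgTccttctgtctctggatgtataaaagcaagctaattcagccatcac

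Levels are given as log2 of the processed spot signal relative to the 75th percentile of the array, so 0 is that percentile. A probe's level cannot be set against another probe's. Of the 14 probes, 12 were well above background on at least 4 arrays and were tested with limma across all 32337 such probes, with changes called at a Benjamini-Hochberg adjusted p under 0.05. Each of the 9 genes kept at least 1 probe. The 2 probes left out were a second Cyp2s1 probe (A_52_P456837), which was well above background on no array, and a second Cyp1b1 probe (A_52_P297822), which was so on 2 of 16 arrays. The 75th percentile lay between 573.8 and 946.2, and 64.4% to 83.6% of probes were well above background, the most on ozone replicate 3 of 6 h. Nothing in the labels says that the mice of a group came from different litters, so the p-values measure the spread between these mice.

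At 24 h after exposure, 4 of the 9 genes rose in ozone lungs and none fell. These were Cyp2a4, Cyp2a5, Cyp2b9 and Cyp2b10, with about 2 to 3 times the level of air lungs. The 4 are not separate findings. The Cyp2a4 probes are listed for Cyp2a5 too, and the called Cyp2b9 probe for Cyp2b10 too. The probe listed for Cyp2b9 alone was not called. Beside the count of 4, 0.439% of all probes tested were called higher and 1.12% lower, 1.56% in all. The 9 genes were chosen with earlier results of these data known, so the count is only a description. At 6 h only Cyp2b9 rose, against 1.05% of all probes called higher, 2.63% called lower and 3.68% called in all. In counts, 142 probes were higher and 363 lower at 24 h, and 340 higher and 849 lower at 6 h. With arrays scaled on their medians these became 51 and 273 at 24 h and 53 and 1097 at 6 h, and with normexp background correction 318 and 439 at 24 h and 177 and 957 at 6 h. The median log2 difference of the 9 genes was 0.36 at 24 h and 0.30 at 6 h, where the medians over all probes were 0 and 0.08.

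**Figure D1:**
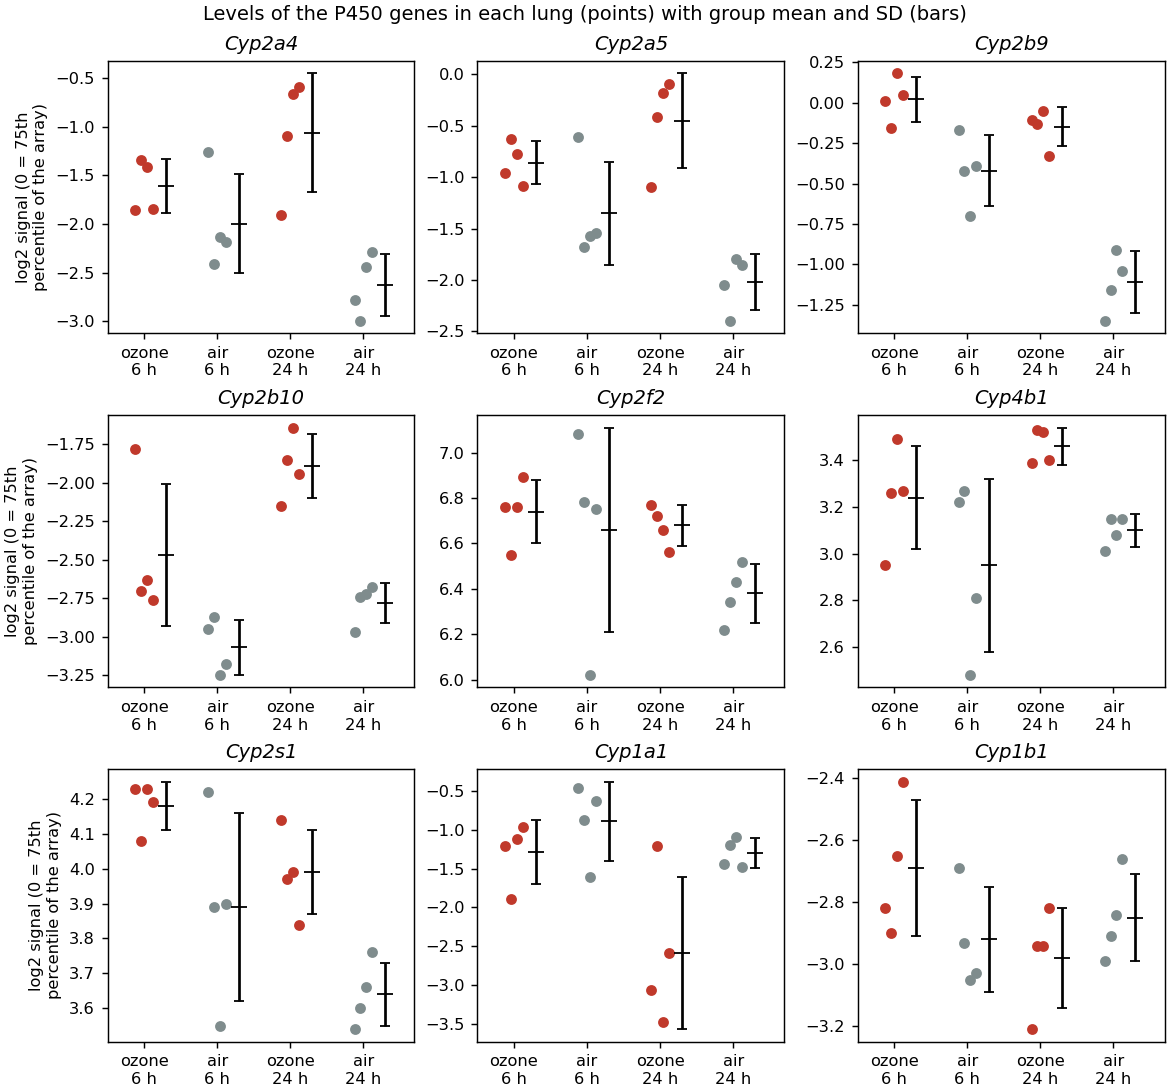
Log2 signal of the 9 P450 genes (vertical axes, 0 at the 75th percentile of the array) in ozone and air lungs at 6 h and 24 h, using the brightest probe of each gene. Points are the 4 lungs of a group and bars its mean and SD. At 24 h all 4 ozone points lie above all 4 air points for 7 genes, as they do for 5.6% of all probes tested. Cyp1a1 has 3 ozone points below the air points.

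Cyp2a5, which hydroxylates coumarin and nicotine, rose 2.99-fold at 24 h. Its probe had levels of -1.10, -0.41, -0.18 and -0.09 in the ozone lungs of 24 h (replicates 1 to 4), against -2.05, -2.40, -1.80 and -1.85 in the air lungs. All ozone lungs lay above all air lungs, with replicate 1 the lowest of the ozone lungs. Ozone minus air was 1.58 ± 0.23 on the log2 scale (SE, n = 4 per group, limma adjusted p = 0.00137). It was 1.47 on the slide of replicates 1 and 2, where 2 lungs per group did not pass the test (limma adjusted p = 0.0733), and 1.69 on the slide of replicates 3 and 4, where they did.

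At 6 h Cyp2a5 did not pass the test. Its levels were -0.96, -0.63, -0.77 and -1.09 in ozone lungs, against -0.61, -1.68, -1.57 and -1.54 in air lungs, so that the ozone lungs lay above 3 of the 4 air lungs. Air replicate 1 was the highest of these 8 lungs. The log2 difference was 0.49 ± 0.23 (limma adjusted p = 0.254), and without air replicate 1 it was 0.73 ± 0.20 (limma adjusted p = 0.0698).

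Cyp2a4, a testosterone hydroxylase that is higher in female than in male liver of many mouse strains, rose 2.96-fold at 24 h by its brightest probe, A_52_P246255. Levels were -1.91, -1.09, -0.66 and -0.59 in ozone lungs, against -2.78, -3.00, -2.44 and -2.29 in air lungs of 24 h. The groups did not overlap, and replicate 1 was again the lowest ozone lung. Their means differed by 1.57 ± 0.27 on the log2 scale (limma adjusted p = 0.00508). With normexp background correction, which moved the median of all probes to -0.21 at 24 h, it was 0.87 with an adjusted p of 0.0509, or 1.08 above that median. The other Cyp2a4 probes differed by 1.60 ± 0.28 (A_51_P377154, limma adjusted p = 0.00496) and 0.92 ± 0.22 (A_52_P9703, limma adjusted p = 0.04). The call of A_52_P9703 held when each of 5 single arrays was dropped and was lost, with adjusted p-values of up to 0.121, when any of the other 11 was. With normexp background correction A_52_P9703 was at 0.18 (adjusted p = 0.514) and A_51_P377154 at 0.81 (adjusted p = 0.0944). The call of A_52_P9703 was also lost with no filter on dim probes, the replicate block, the Xist covariate and no trend in the variance prior.

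At 6 h none of the 3 Cyp2a4 probes passed the test. Levels of A_52_P246255 were -1.86, -1.34, -1.41 and -1.85 in ozone lungs, against -1.26, -2.41, -2.13 and -2.19 in air lungs, with air replicate 1 highest as for Cyp2a5. The log2 differences of the 3 probes were 0.39, 0.58 and 0.50, with limma adjusted p-values of 0.443, 0.259 and 0.211. Over the 16 arrays the Cyp2a5 probe correlated with the Cyp2a4 probes A_52_P246255 and A_51_P377154 at r = 0.99 and 0.98, and with A_52_P9703 at r = 0.67. These probes can bind the same RNA, so the values do not separate Cyp2a4 from Cyp2a5.

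**Figure D2:**
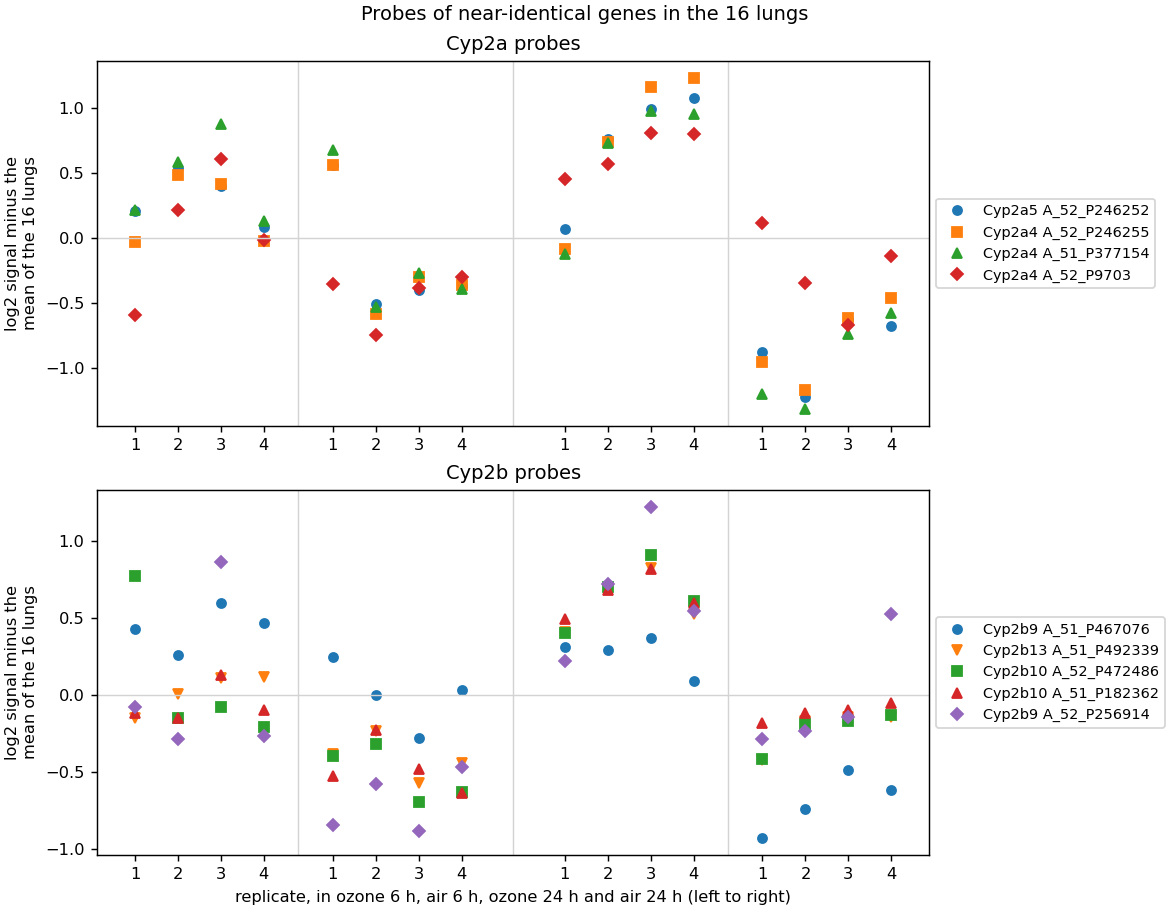
Log2 signal of each Cyp2a probe (top) and Cyp2b probe (bottom) minus that probe's own mean over the 16 lungs, for replicates 1 to 4 of ozone 6 h, air 6 h, ozone 24 h and air 24 h from left to right. The Cyp2a5 probe and 2 of the Cyp2a4 probes run closely together, while Cyp2a4 probe A_52_P9703 departs from them in several lungs, among them replicate 1 of each group, and air replicate 1 of 6 h stands above the other air lungs of that time for those that run together.

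Cyp2b9, like Cyp2a4 higher in female than in male mouse liver, rose 1.95-fold at 24 h by its brighter probe, A_51_P467076. Levels were -0.11, -0.13, -0.05 and -0.33 in ozone lungs, against -1.35, -1.16, -0.91 and -1.04 in air lungs. The groups did not overlap, and the gap between them was wider than the spread of either. The log2 difference was 0.96 ± 0.12 (limma adjusted p = 0.000304), the smallest adjusted p of the 9 genes.

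At 6 h the same Cyp2b9 probe rose 1.36-fold. Levels were 0.01, -0.16, 0.18 and 0.05 in ozone lungs, against -0.17, -0.42, -0.70 and -0.39 in air lungs. All ozone lungs lay above all air lungs, but ozone replicate 2 and air replicate 1 nearly touched. The log2 difference was 0.44 ± 0.12 (limma adjusted p = 0.0441). The call held in 3 of 14 alternative settings and in 5 of 16 fits without 1 array, over which the difference ran from 0.28 to 0.60 and from 0.35 to 0.52. Leaving out ozone replicate 1, 3 or 4 or air replicate 2, 3 or 4 of 6 h each ended it, with adjusted p-values from 0.0524 to 0.125. So did leaving out ozone replicate 1, 2 or 3 or air replicate 2 or 4 of 24 h, which share the estimate of the spread, with adjusted p-values from 0.0504 to 0.0583. On the slide of replicates 1 and 2 the difference was 0.22, and on that of replicates 3 and 4 it was 0.66.

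The dim Cyp2b9 probe A_52_P256914, which is listed for Cyp2b9 alone, did not pass the test at either time. At 24 h its levels were -3.90, -3.40, -2.90 and -3.58 in ozone lungs, against -4.41, -4.36, -4.27 and -3.60 in air lungs, so air replicate 4 lay among the ozone lungs. The log2 difference was 0.72 ± 0.27 (limma adjusted p = 0.265), and it was -0.18 with normexp background correction. At 6 h it was 0.75 ± 0.27 (limma adjusted p = 0.131), with 3 of the 4 air lungs well above background. Over the 16 arrays this probe correlated with the brighter Cyp2b9 probe at r = 0.29 and with the Cyp2b10 probe at r = 0.75. The brighter probe is also listed for Cyp2b10, so its values do not separate Cyp2b9 from Cyp2b10.

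Cyp2b10, in liver the standard target gene of the nuclear receptor CAR (Nr1i3), rose 1.85-fold at 24 h. Levels were -2.15, -1.85, -1.64 and -1.94 in ozone lungs, against -2.97, -2.74, -2.72 and -2.68 in air lungs. No lungs of the groups overlapped. On the log2 scale they differed by 0.89 ± 0.18 (limma adjusted p = 0.0169). The call was lost with normexp background correction (0.34, or 0.55 above the median of all probes, limma adjusted p = 0.271). It was also lost without air replicate 1 (0.82, adjusted p = 0.0704) or ozone replicate 3 of 24 h (0.80, adjusted p = 0.0745), and with the level of Xist as a covariate (0.76, adjusted p = 0.0983).

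Xist is transcribed from the inactive X chromosome of females. Its level was below the 75th percentile in 3 of 4 ozone lungs and 1 of 4 air lungs at 24 h, and in 2 of 4 ozone lungs and 1 of 4 air lungs at 6 h. With Xist as a covariate, Cyp2a4, Cyp2a5 and Cyp2b9 were still called at 24 h by their brightest probes.

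At 6 h Cyp2b10 had levels of -1.78, -2.70, -2.63 and -2.76 in ozone lungs, against -2.95, -2.87, -3.25 and -3.18 in air lungs. Every ozone lung was above every air lung, and ozone replicate 1 stood far above the other ozone lungs. The log2 difference of 0.60 ± 0.18 did not pass the test (limma adjusted p = 0.0796), and without ozone replicate 1 it was 0.37 ± 0.14 (limma adjusted p = 0.159). A probe of a Cyp2b10 transcript, A_51_P182362, whose name in the files is the transcript's identifier and which is not counted among the 14, differed by 0.76 ± 0.12 at 24 h (limma adjusted p = 0.00192) and by 0.41 ± 0.12 at 6 h (limma adjusted p = 0.0612). With normexp background correction its 24 h call was lost too (0.29, adjusted p = 0.271). Ozone replicate 1 of 6 h did not stand apart on this probe, with -2.92 beside -2.95, -2.67 and -2.90.

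The probe A_51_P492339 named Cyp2b13, which is listed for 4 genes of the group, rose at both times. At 24 h its levels were -1.48, -1.20, -1.06 and -1.36 in ozone lungs, against -2.31, -2.06, -2.03 and -2.03 in air lungs, a log2 difference of 0.83 ± 0.11 (limma adjusted p = 0.00082). At 6 h the difference was 0.43 ± 0.11 (limma adjusted p = 0.0453), close to the threshold. For this probe the main fit alone is given. It is also listed for Cyp2b9 and Cyp2b10, so its rise is not a separate finding. A second Cyp2b13 probe, A_52_P289091, is listed for Cyp2b13 alone and was called at neither time, with 0.97 ± 0.41 at 24 h (limma adjusted p = 0.336) and -0.05 ± 0.41 at 6 h (limma adjusted p = 0.959). Of the 5 tested genes of the same cluster outside the 9, namely Cyp2a22, Cyp2b13, Cyp2b19, Cyp2b23 and Cyp2g1, Cyp2b13 was the one called at each time, by its brighter probe, which does not tell it from the other 3 genes.

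**Figure D3:**
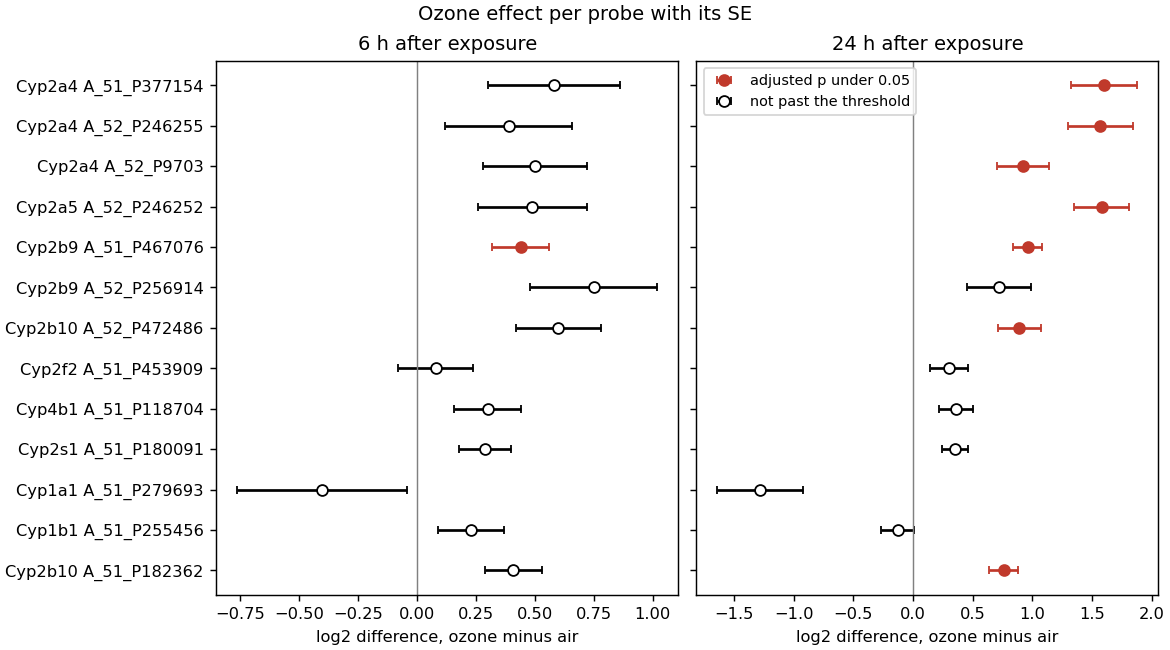
Log2 difference of ozone minus air (horizontal axes) with its SE for the 12 tested probes and the Cyp2b10 transcript probe, at 6 h (left) and 24 h (right). Filled red points passed an adjusted p under 0.05, which 1 Cyp2b9 probe did at 6 h and 7 probes of the Cyp2a and Cyp2b genes did at 24 h.

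The club cell P450s Cyp2f2 and Cyp4b1 and the epithelial Cyp2s1 did not pass the test at either time, although at 24 h each had all 4 ozone lungs above all 4 air lungs. Of all probes tested, 5.6% had ozone above air without overlap at 24 h, and 4.41% did at 6 h. For Cyp2f2 the 24 h levels were 6.77, 6.72, 6.66 and 6.56 in ozone lungs, against 6.22, 6.34, 6.43 and 6.52 in air lungs. The lowest ozone lung and the highest air lung were thus 6.56 and 6.52, nearly equal. The log2 difference was 0.30 ± 0.16 (limma adjusted p = 0.498).

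Cyp4b1, which activates furan compounds in lung, had 24 h levels of 3.39, 3.53, 3.52 and 3.40 in ozone lungs, against 3.01, 3.15, 3.08 and 3.15 in air lungs. Its groups were tight, with SDs of 0.08 in ozone and 0.07 in air lungs, and the log2 difference was 0.36 ± 0.14 (limma adjusted p = 0.286). Cyp2s1, a P450 of epithelia outside the liver, had 4.14, 3.97, 3.99 and 3.84 in ozone lungs, against 3.54, 3.60, 3.66 and 3.76 in air lungs, a log2 difference of 0.35 ± 0.11 (limma adjusted p = 0.143). Cyp2s1 was called at 24 h in 4 of 14 alternative settings and Cyp4b1 in 3. Cyp2f2 was called in none of the 14.

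At 6 h the ozone and air lungs overlapped for these 3 genes. Cyp2f2 had 6.76, 6.55, 6.76 and 6.89 in ozone lungs, against 7.08, 6.78, 6.02 and 6.75 in air lungs, where air replicates 1 and 3 were the highest and the lowest of all 8. The log2 differences were 0.08 ± 0.16 for Cyp2f2, 0.30 ± 0.14 for Cyp4b1 and 0.29 ± 0.11 for Cyp2s1, with limma adjusted p-values of 0.787, 0.25 and 0.141. For Cyp4b1 the difference was -0.14 on the slide of replicates 1 and 2 and 0.74 on the slide of replicates 3 and 4.

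Cyp1a1 and Cyp1b1, the Ahr targets among the 9 genes, were not called at either time. Cyp1a1 had 24 h levels of -3.07, -1.21, -3.48 and -2.59 in ozone lungs, against -1.44, -1.20, -1.09 and -1.48 in air lungs. Ozone replicates 1, 3 and 4 lay below every air lung, while ozone replicate 2 was level with the air lungs. Ozone minus air was -1.28 ± 0.36 (limma adjusted p = 0.0944), and without ozone replicate 2 it was -1.74 ± 0.26 (limma adjusted p = 0.00193). The latter was the 1 of 16 fits without 1 array in which it passed the threshold. It also passed in 2 of 14 alternative settings. These were normexp background correction (-1.06, or -0.85 relative to the median of all probes, limma adjusted p = 0.0149) and array weights (-1.27, limma adjusted p = 0.0285). With Xist as a covariate the difference was -1.18 (limma adjusted p = 0.286). Ozone replicate 2 was the 1 ozone lung of 24 h with a high level of Xist (4.35).

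At 6 h Cyp1a1 had -1.21, -1.89, -1.12 and -0.96 in ozone lungs, against -0.46, -0.87, -1.61 and -0.63 in air lungs, which overlapped (log2 difference -0.40 ± 0.36, limma adjusted p = 0.551). Cyp1b1 was nearly level in the 4 groups, with means of -2.69 ± 0.22 in ozone and -2.92 ± 0.17 in air lungs at 6 h, and of -2.98 ± 0.16 in ozone and -2.85 ± 0.14 in air lungs at 24 h (SD, n = 4). Its log2 differences were 0.23 ± 0.14 at 6 h and -0.13 ± 0.14 at 24 h, with limma adjusted p-values of 0.357 and 0.834.

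The promoters of both genes hold the core of the xenobiotic response element to which Ahr binds, GCGTG, and the stretches around it are shown with the core, or its complement, in capitals. They are from RefSeq (GRCm38.p6), at chr9:57697544-57697578 on the plus strand for Cyp1a1 and chr17:79715118-79715152 on the minus strand for Cyp1b1.
Cyp1a1 promoter: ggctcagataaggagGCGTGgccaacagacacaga
Cyp1b1 promoter: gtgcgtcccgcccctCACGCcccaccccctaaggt
Among the windows of 300 bases around the start sites of the 9 genes, searched on both strands, Cyp2b10 also held GCGTG and the other 6 did not. Of all 32851 promoter windows of that length, 32.4% held it. The core of the antioxidant response element, TGACNNNGC, was in none of the 9 windows and in 12.4% of all windows.

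Calls among partner genes of the P450s are given beside those of all probes, 1.56% at 24 h and 3.68% at 6 h. These lists were chosen with earlier results known, so the counts are only descriptions. Of 11 tested genes of the Ahr pathway, Gsta1, a glutathione transferase, rose at 24 h (0.73 ± 0.16 on the log2 scale, limma adjusted p = 0.0253), and none was called at 6 h. Of 10 genes linked to the supply of electrons, to haem turnover or to the products of P450s, none was called at either time. The reductase Por, 1 of these 10, differed by 0.23 ± 0.12 at 24 h (limma adjusted p = 0.483) and 0.33 ± 0.12 at 6 h (limma adjusted p = 0.136). None of 16 genes of xenobiotic nuclear receptors and related factors was called. Of 29 other P450s of drug metabolism, none was called at 24 h and 1 at 6 h, Cyp3a13 (0.72 ± 0.17, limma adjusted p = 0.0292).

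Other genes listed for the club cell were also higher at 24 h. Of 20 such genes that are no P450s, 6 rose and none fell, where 0.439% of all probes were called higher and 1.12% lower. The median log2 difference of the 20 was 0.38 beside 0 over all probes. This list was chosen with earlier results of these data known, so its count is only a description. Whether each of its genes is particular to club cells was not tested. Among the 6 were Inmt (1.98 ± 0.27, limma adjusted p = 0.000805), Ces1d (0.56 ± 0.08, 0.00137) and Aldh1a1 (0.52 ± 0.09, 0.00508). Scgb1a1, the defining secretory protein of club cells, differed by 0.12 ± 0.12 (limma adjusted p = 0.792). The mean log2 level of the 20 genes lay between 2.42 and 2.71 in ozone lungs and between 1.98 and 2.18 in air lungs of 24 h. At 6 h none of the 20 was called, and the means lay between 2.60 and 2.76 in ozone lungs and between 2.56 and 2.86 in air lungs. In whole lung, more cells of a type and more RNA per cell cannot be told apart, and the part of the club cell genes in the rise of the 4 P450s was not tested.

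**Figure D4:**
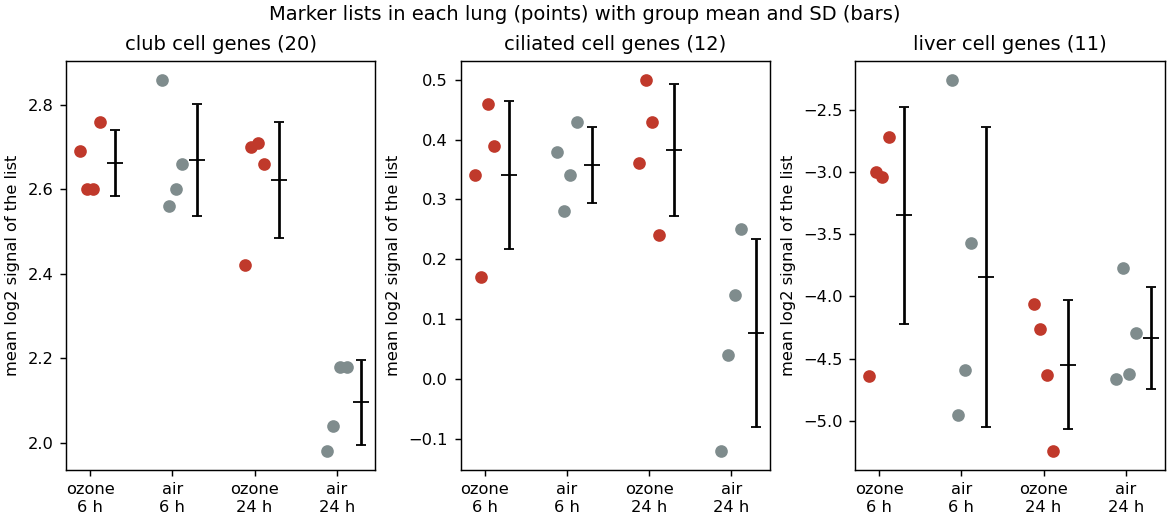
Mean log2 level of 20 club cell genes, 12 ciliated cell genes and 11 liver cell genes (vertical axes) in each lung, with group means and SDs as bars. At 24 h the ozone lungs lie above the air lungs for the club cell genes, and the liver cell genes are highest in air replicate 1 of 6 h.

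Genes of ciliated cells, the other main airway cell, had 1 of 12 called at each time. Tppp3 rose at 24 h (0.40 ± 0.09, limma adjusted p = 0.0348) and Sntn fell at 6 h (-0.48 ± 0.13, limma adjusted p = 0.0435). At 24 h all 12 had positive differences, with a median of 0.31, near the 0.38 of the club cell genes, and mean log2 levels were 0.38 ± 0.11 in ozone and 0.08 ± 0.16 in air lungs (SD, n = 4). At 6 h 3 of the 12 were positive, with a median of -0.16. Their part in the P450 values was not tested. Since the Cyp2a and Cyp2b genes are also strongly expressed in liver, 11 genes of liver cells were measured beside them, and none was called at either time. Their summed signal, in multiples of the 75th percentile, ran from 0.685 to 1.12 in ozone lungs and from 0.714 to 1.5 in air lungs at 24 h. At 6 h it ran from 0.772 to 3.1 in ozone lungs and from 0.651 to 5.75 in air lungs. The highest of the 16 was air replicate 1 of 6 h, the lung that was also highest for Cyp2a5 at that time, and its part in the Cyp2a values was not tested. Of 8 genes of squamous epithelium, 7 had positive differences at 6 h, with a median of 0.88 on the log2 scale beside 0.08 over all probes. Their mean log2 level was -2.65 ± 0.37 in ozone and -3.62 ± 0.88 in air lungs of 6 h (SD, n = 4). The 1 of the 8 called at 6 h was Dmkn, with a difference of the other sign (-0.43 ± 0.12, limma adjusted p = 0.0467), and none was called at 24 h.

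The difference between the ozone effects of 24 h and 6 h was itself tested, and none of the 9 genes passed, where 0.0649% of all probes did. At an unadjusted p under 0.05 the effects of Cyp2a4, Cyp2a5 and Cyp2b9 differed, as did 12% of all probes. The differences on the log2 scale were 1.18 ± 0.39 for Cyp2a4 (limma adjusted p = 0.243), 1.09 ± 0.33 for Cyp2a5 (limma adjusted p = 0.201) and 0.52 ± 0.16 for Cyp2b9 (limma adjusted p = 0.223). Those of the other 6 genes ran from -0.89 for Cyp1a1 to 0.29 for Cyp2b10.

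Across the 4 groups, the mean levels of Cyp2a4 and Cyp2a5 had the order ozone 24 h, ozone 6 h, air 6 h and air 24 h from high to low. For Cyp2a5 these means were -0.45 ± 0.46, -0.86 ± 0.21, -1.35 ± 0.50 and -2.02 ± 0.27 (SD, n = 4), and neighbours overlapped except for the air groups, where all lungs of 6 h lay above all of 24 h. For Cyp2b9 the order was ozone 6 h, ozone 24 h, air 6 h and air 24 h, and again the air groups alone were apart among neighbours. Air lungs of 24 h were below those of 6 h by a log2 difference of -0.69 for Cyp2b9 and -0.67 for Cyp2a5, and time, slide and scan cannot be told apart in this difference. For Cyp2b10 and Cyp4b1 both ozone groups stood above both air groups by their means, and each pair of neighbours overlapped. For Cyp1a1 the air lungs of 6 h were highest and the ozone lungs of 24 h lowest, with overlap at each step. Cyp2f2 and Cyp2s1 followed the order of Cyp2b9 and Cyp1b1 the order ozone 6 h, air 24 h, air 6 h and ozone 24 h, and for these 3 genes every pair of neighbours overlapped.

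Genes were compared over the 16 arrays by their brightest tested probe, with clone and predicted names passed over. Among the 5 most like Cyp2a5 were Cyp2a4 (r = 0.985), Itih3 (r = 0.862), Cfd (r = 0.852) and Vpreb3 (r = 0.848). After the group means were taken out, r was 0.973 for Cyp2a4 and 0.828 for Cfd. For Cyp2f2 the 5 were Slc39a4 (r = 0.932), Itpka, Acox2, Drc1 and Lrrc26, for Cyp1b1 Aldh1b1 (r = 0.843), Smoc2, Myo1c, Usp54 and Arhgef16, and for Cyp1a1 Pcdhb16 (r = 0.886), Nsmce2, Ccdc34, Dbr1 and Pgp. Among the 9 genes themselves, Cyp2s1 ran with Cyp2b9 (r = 0.90) and Cyp2f2 (r = 0.87), and within groups these were 0.83 and 0.93. Cyp1a1 ran against Cyp2b10 over the 16 arrays (r = -0.61), but within groups r was 0.11. The arrays share groups and slides, so these values are descriptions.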

How the data were processed

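Per the file headers, the deposited spot intensity values were written by Agilent Feature Extraction 10.7.1.1 from 1 colour (Cy3), with background subtracted and spatial trends removed but no scaling between arrays. Other values in the deposited files are flags that mark a spot as well above background, as saturated (none was) or as uneven. The authors' deposited log2 table was used only as an alternative, and its 2 time points were found to be normalized apart (medians of 6.41 at 6 h and 6.73 at 24 h). Spots of a probe were averaged, and log2 values minus the 75th percentile of each array were fitted per probe in R 4.3.3 by limma 3.58.1 (eBayes on lmFit, its prior following a trend, 1 mean per group over 16 arrays, two-sided). A total of 164 probes with an uneven spot were left out. A gene with several probes is represented in counts by its brightest. Values are given for the probes of the 9 genes and, of each other list, for called genes, at most 4 by smallest p. A gene that this rule takes is not reported here. The number of arrays limits the precision. The fit was tested on simulated data. The members and gene lists were chosen with earlier results of these data known. Genes were named through RefSeq accession (25097 probes), symbol (6333) or synonym (1640), or kept the file's name (8104). Probe positions are those of build mm9, and promoter sequences are from RefSeq (GRCm38.p6). Protein sequences were not used here. Alternatives were other background corrections and scalings, filters, probe rules, slide and replicate blocks, array weights, Xist as a covariate, and each array left out.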

Additional observations from a re-analysis of the deposited data

Results flagged for a closer look

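In 2 of the 52 groups of 4 lungs tested, 1 lung stood apart from the other 3, and chance flags about 1 group in 20. Cyp2b10 was at -1.78 in ozone replicate 1 of 6 h, where the other ozone lungs lay between -2.76 and -2.63. Cyp2a5 was at -0.61 in air replicate 1 of 6 h, where the other air lungs lay between -1.68 and -1.54. The gap was 0.86 of the whole range of the group in both cases.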

How the results depend on the processing

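At 24 h, Cyp2a5 and Cyp2b9 were called in all 14 alternative settings other than the fits within a slide, and in all 16 fits without 1 array, Cyp2a4 in 13 and 16, and Cyp2b10 in 12 and 14. The count of the 9 genes called at 24 h was 4. It was 1 (Cyp2b9) within the slide of replicates 1 and 2, where Cyp2a5 was lost, 3 within the slide of replicates 3 and 4, and 7 with array weights (6 higher and 1 lower), where 2381 of all probes were called (1229 higher and 1152 lower) against 505. With normexp background correction it was 4, of which 3 were higher and 1, Cyp1a1, lower. Without 1 array it ran from 3 to 5. The count of 1 at 6 h became 0 with normexp background correction, median scaling, the authors' deposited table, no filter on dim probes, the mean of a gene's probes, the arrays of 6 h alone, the slide as a block, array weights, the Xist covariate, no trend in the variance prior and within the slide of replicates 1 and 2. It became 2 with quantile normalization and within the slide of replicates 3 and 4, and it ran from 0 to 2 without 1 array. For the difference of the effects, the count of 0 became 3 with array weights (Cyp2a4, Cyp2a5 and Cyp2b9), where 476 of all probes were called against 21. With the replicate number as a block the counts were 0 at 6 h, 4 at 24 h and 0 for the difference. Lungs of the same number deviated together with r from 0.03 to 0.14 at 6 h and from -0.03 to 0.13 at 24 h. For ozone and air lungs of different numbers, r ran from -0.15 to 0.12 at 6 h and from -0.36 to 0.40 at 24 h. The main fit took no pairs, and these few values cannot settle whether lungs of the same number were paired. No called difference turned its direction. Normexp background correction moved the median of all probes from 0 to -0.21 at 24 h and from 0.08 to 0.17 at 6 h, and median scaling moved it to -0.09 at 6 h. The cause of these changes was not tested.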
